A study of Caenorhabditis elegans with 2 samples.

Results

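The F-box A genes (fbxa) were taken as the protein-coding genes whose symbol starts with fbxa- in the Ensembl annotation of the Caenorhabditis elegans genome WBcel235. There were 170 of them among 19973 protein-coding genes on the nuclear chromosomes. The rule uses only the name and no binding value. They carried 169 symbols, since fbxa-41 is the symbol of 2 gene identifiers on chromosome X. Chromosomes V and III held most of them, with 71 and 60 genes, followed by II and X with 14 each, I with 6 and IV with 5.

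Binding of the intestinal GATA transcription factor ELT-2 was mapped by chromatin immunoprecipitation and sequencing (ChIP-seq), in which an antibody pulls down a protein with the DNA it sits on. The worms were hermaphrodite L1 larvae, the first larval stage, of strain OP56 with the genotype unc-119(ed3) III; wgIs56, starved after bleaching to synchronize them and taken 6 h after synchronization. They carried a transgene for ELT-2 with a C-terminal GFP-FLAG tag, and the antibody was against GFP, so the binding mapped is that of the tagged transgene product. There were 2 biological replicates of this 1 group, and no condition was compared. Whole worms were used, so a strong peak in a few cells and a weak one in many cannot be told apart. Only peaks, without reads, are in the files, so the depth of sequencing is unknown and no counting interval is given.

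An F-box protein chooses the target of a ubiquitin ligase. Its F-box motif binds a Skp1-related protein (SKR in the worm), which ties it to a cullin, and this SCF complex then attaches ubiquitin to the protein that the F-box subunit holds. C. elegans has very large F-box families that lie in clusters on the chromosome arms, and most of their members have no known target. FBXA-75 and FBXA-158 are known to work with the cullin CUL-6 and SKR-3 in the intracellular pathogen response, a program against microsporidia and viruses of the intestine. ELT-2 is the chief transcription factor of the intestine and binds DNA at GATA sites such as TGATAA.

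A gene was called bound when a summit of the thresholded list fell in its promoter window, which reaches from 1000 bp before to 200 bp past a transcript's 5′ end. That list holds 5443 peaks kept by the irreproducible discovery rate method (IDR) because their ranks match between replicates. Each peak has a signal, the enrichment value given by the authors' peak caller, on a scale of its own in each list. Rank 1 is the strongest signal of a list. Signals in the thresholded list ran from 142 to 6412.

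By this definition 43 of the 170 fbxa genes were bound, or 25.3%, against a background of 17% over all protein-coding genes (3401 of 19973). The 43 genes were served by 40 distinct peaks, 1 summit for each gene, with 3 peaks shared by a pair of fbxa genes. With 1 group and no condition to compare, the shares are descriptions and carry no test.

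The DNA at the 6 strongest of these summits is shown first, so that the hexamer and the bases around it can be read where binding was strongest. Each run is the 101 bp centred on the summit (build ce11, the same assembly as WBcel235, sequence from RefSeq), written 5′ to 3′ on the strand of the gene, with TGATAA and its reverse complement TTATCA in capitals.
fbxa-108, chrV:17659378-17659478, minus strand: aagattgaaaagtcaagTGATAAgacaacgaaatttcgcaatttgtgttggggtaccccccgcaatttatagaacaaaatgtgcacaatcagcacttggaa
fbxa-83, chrIV:14327139-14327239, minus strand: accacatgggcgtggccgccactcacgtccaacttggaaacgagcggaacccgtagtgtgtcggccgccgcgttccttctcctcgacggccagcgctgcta
fbxa-158, chrII:1621944-1622044, minus strand: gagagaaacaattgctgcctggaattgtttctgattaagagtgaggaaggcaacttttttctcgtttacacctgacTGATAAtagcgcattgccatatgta
fbxa-50, chrIII:1289292-1289392, minus strand: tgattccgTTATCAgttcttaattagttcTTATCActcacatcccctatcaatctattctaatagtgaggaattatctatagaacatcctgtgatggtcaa
fbxa-24, chrII:3815921-3816021, plus strand: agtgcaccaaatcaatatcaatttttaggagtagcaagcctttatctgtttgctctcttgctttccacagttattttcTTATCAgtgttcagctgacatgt
fbxa-35, chrIII:1295296-1295396, plus strand: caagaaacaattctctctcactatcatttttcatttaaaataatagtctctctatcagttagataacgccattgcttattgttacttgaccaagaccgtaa
The fbxa-108, fbxa-158 and fbxa-24 runs hold 1 hexamer each and the fbxa-50 run holds 2. The fbxa-83 and fbxa-35 runs hold none. In the fbxa-83 run 65.3% of the bases are G or C, against 31.7% in the fbxa-35 run. The last bases of the fbxa-108 run pass the annotated 5′ end, and the other runs lie between protein-coding genes.

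The strongest fbxa peak stood apart from all others of the family. At fbxa-108 on chromosome V the summit lay at position 17659428, 43 bp before the 5′ end, with a signal of 1518 and rank 31 in the thresholded list. Its signal was 865 in replicate 1 and 661 in replicate 2, and it ranked 31 in each of them too. The same summit fell in the window of dgat-2, a gene for a diacylglycerol acyltransferase of fat synthesis, whose 5′ end lay 875 bp away on the other strand. The next fbxa peak had rank 495, at fbxa-83.

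Behind it came 9 peaks with ranks from 495 to 1255, and at 7 of these the summit lay over 300 bp upstream and in the promoter window of no other protein-coding gene. The fbxa-83 summit on chromosome IV lay 806 bp upstream, with a signal of 615 (341 in replicate 1 and 275 in replicate 2). At fbxa-158 on chromosome II, the pathogen response gene, it lay 714 bp upstream with a signal of 601 (360.2 and 241). This peak ranked 531 in the thresholded list, 460 in replicate 1 and 652 in replicate 2, so it stood high in both. The fbxa-50 summit on chromosome III lay 819 bp upstream with a signal of 535 (316 and 218). At fbxa-24 on chromosome II it lay 555 bp upstream with a signal of 479 (310.1 and 175). These distances are long for the family, whose median summit lay 160 bp upstream.

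The other 5 of that group were fbxa-35, fbxa-88, fbxa-134, fbxa-90 and fbxa-9, with signals of 461, 441, 426, 425 and 405. The fbxa-35 peak overlapped the annotated antisense RNA gene anr-53. The fbxa-88 summit lay 302 bp upstream of its own 5′ end and also inside the annotated 5′ untranslated region (UTR) of its neighbour fbxa-18, which runs the other way. The fbxa-90 summit is the doubtful one: it lay 953 bp upstream of fbxa-90 but only 186 bp upstream of efl-1, a gene for an E2F-like cell cycle factor. It was the only 1 of the 40 peaks with a gene outside the family strictly nearest.

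**Figure D1:**
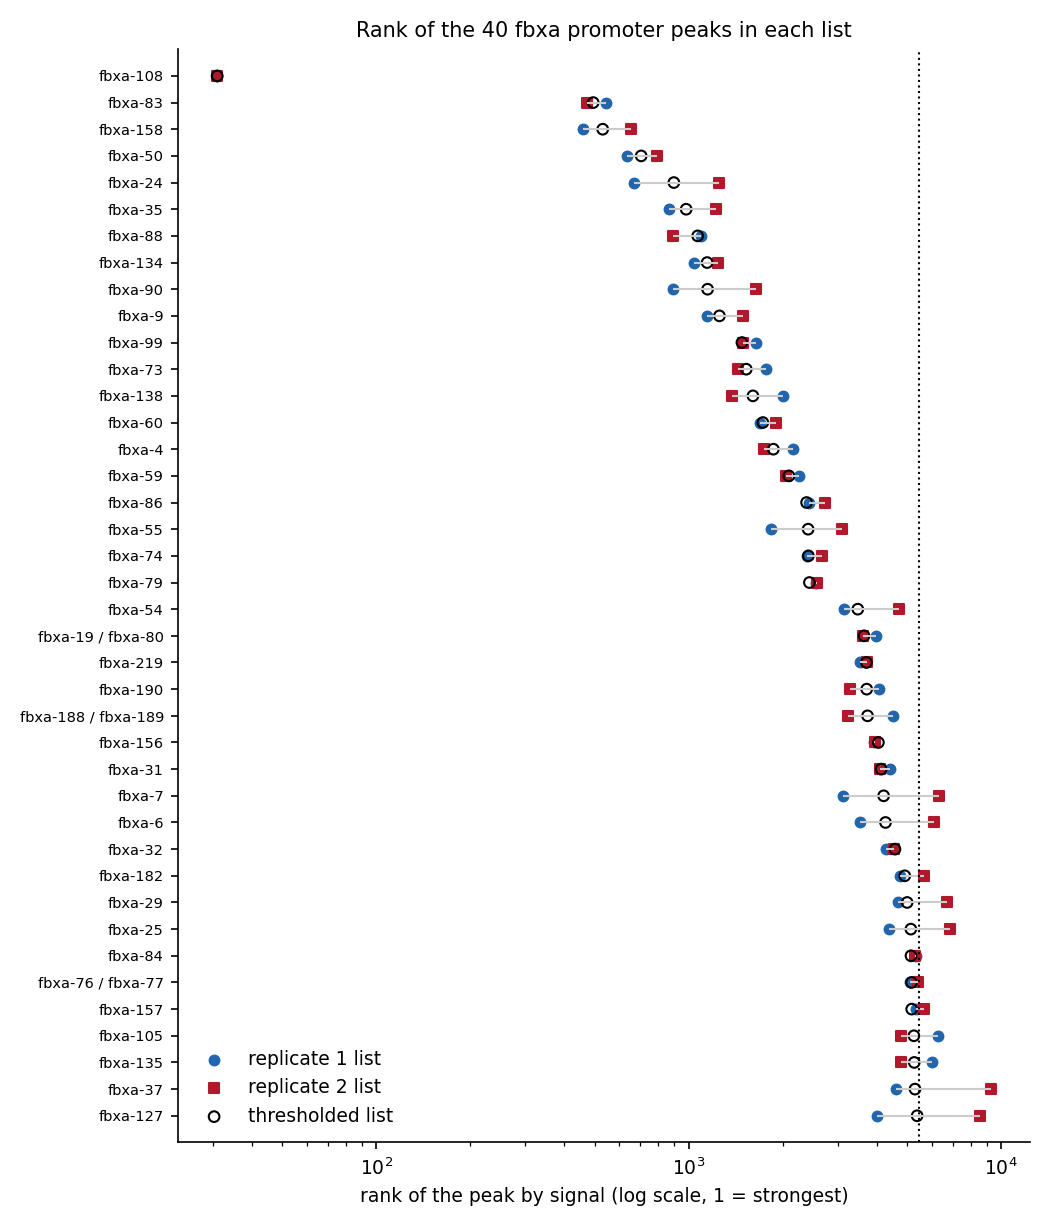
Rank of each of the 40 fbxa promoter peaks in the thresholded list (open circles) and of the strongest overlapping peak in the list of replicate 1 (blue circles) and replicate 2 (red squares), on a log axis where 1 is the strongest and the dotted line marks rank 5443. The fbxa-108 peak sits at rank 31 in all 3 lists, and the 2 replicates spread furthest for the weakest peaks, up to rank 9284 for fbxa-37 in replicate 2.

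Apart from fbxa-108 the family's peaks were of ordinary strength. Their median rank was 2957, with a range from 31 to 5385, against 2704 for the other 3036 promoter peaks. Exactly 20 of the 40 were among the 2721 strongest thresholded peaks, or 50%, and 50.3% of the other promoter peaks were. Counting genes by these 2721 peaks, 20 fbxa genes were bound, or 11.8%, against a background of 8.86%.

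Both replicates listed a peak at all 40 places, which the IDR procedure favours by its design. A stricter reading asks whether the peak was among the 5443 strongest of each replicate. It was for 38 of 40 in replicate 1, for 32 in replicate 2 and for 30 in both (75%), against 85.8% of the other promoter peaks. The peaks missing in replicate 2 were those of fbxa-7, fbxa-6, fbxa-182, fbxa-29, fbxa-25, fbxa-157, fbxa-37 and fbxa-127, all at rank 4207 or weaker in the thresholded list. Those missing in replicate 1 were at fbxa-105 and fbxa-135. The weakest member, fbxa-127, ranked 4008 in replicate 1 and 8560 in replicate 2, and fbxa-37 ranked 4606 and 9284. The replicate summits themselves lay close together, at a median distance of 19.5 bp and at most 89 bp.

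Summits kept near the start of fbxa genes. For 41 of the 43 genes the summit lay upstream of the 5′ end, and for 36 of them (83.7%) it lay within 500 bp upstream, against 68.7% of the other 3358 bound genes. The window itself lies mostly upstream, since it reaches 1000 bp before and only 200 bp past the 5′ end. The median position was 160 bp upstream for fbxa genes and 215 bp upstream for the others. Of the 40 summits, 37 lay between protein-coding genes, a count that was not made for other promoter peaks. The exceptions were fbxa-84, where the summit sat 163 bp inside its own 5′ UTR, fbxa-86 on chromosome IV, where it sat in an exon 174 bp past the 5′ end, and the fbxa-88 summit inside fbxa-18 named above. Genes on both strands were bound, 16 of 69 on the plus strand (23.2%) and 27 of 101 on the minus strand (26.7%).

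**Figure D2:**
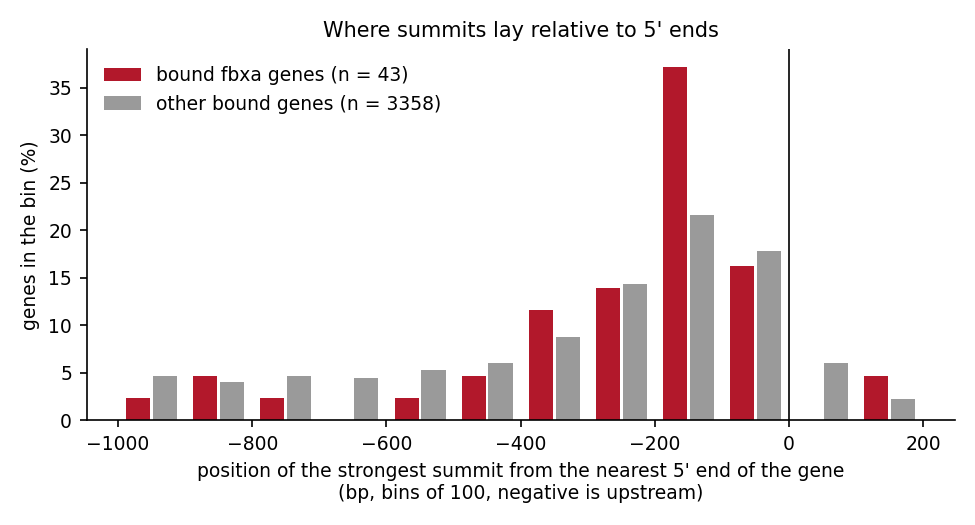
Share of bound genes (vertical axis, percent) by the position of the strongest summit relative to the nearest 5′ end of the gene (horizontal axis, bins of 100 bp, negative values upstream), for 43 bound fbxa genes in red and 3358 other bound genes in grey. The fbxa genes gather in the bin from 200 to 100 bp upstream, and the range of their summits is from 953 bp upstream to 174 bp downstream.

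Most of these peaks lay in no other protein-coding gene's window. Of the 43 bound genes, 30 had no other protein-coding gene with the summit in its window, and 39 had their own 5′ end nearest or tied for nearest. These counts were not made for other bound genes, so they are not shown to be particular to the family. Counting a summit only for the gene with the nearest 5′ end within 1000 bp left 40 fbxa genes bound, or 23.5%, against a background of 15.1%. By that rule fbxa-90, fbxa-188, fbxa-19 and fbxa-76 dropped out and fbxa-14 came in.

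The 3 shared peaks lay between head-to-head pairs, where 2 fbxa genes run apart from a common stretch of DNA. The summit between fbxa-80 and fbxa-19 on chromosome III lay 75 bp before the first and 116 bp before the second, with a signal of 202. Between fbxa-189 and fbxa-188 on chromosome V the distances were 128 and 160 bp and the signal 199. Between fbxa-77 and fbxa-76 on chromosome III they were 97 and 217 bp and the signal 149. All 3 peaks were weak, with ranks of 3642, 3737 and 5168.

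Another 7 of the 40 peaks lay in the window of a gene outside the family. Besides dgat-2 and efl-1 these were F47H4.2 beside fbxa-134, F36G9.13 beside fbxa-99, Y82E9BL.12 beside fbxa-79 and Y82E9BR.5 beside fbxa-138. The last was a tie, since the summit lay 59 bp upstream of both genes. The fbxa-6 gene ends 1218 bp from the left tip of chromosome III. Its summit at position 3151, 54 bp upstream, also fell in the windows of cTel54X.2 and of npr-30, of the neuropeptide receptor family, at 127 and 170 bp.

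The family was bound unevenly along the genome. On chromosome III 23 of 60 fbxa genes were bound, or 38.3%, where 19.02% of all genes of that chromosome were. On V the count was 13 of 71, or 18.3%, beside 16.1% of all genes there. On II 4 of 14 were bound, beside 18.1% of all genes there, and on IV 2 of 5, beside 16.1%. On X only fbxa-190 of 14 was bound, or 7.14%, beside 19.3% of all X genes. None of the 6 members on I was bound, beside 14.4% of all genes there. With so few members, the counts on I, II, IV and X say little.

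The genes around the fbxa genes of III and V had shares near the background. Of the 177 other genes on chromosome III with a 5′ end within 50 kb of an fbxa gene, 32 were bound, or 18.1%. Around the fbxa genes of V it was 156 of 899, or 17.4%, and over all chromosomes 253 of 1578, or 16.03%. Around the members on the other chromosomes the shares ran from 4.84% on IV (3 of 62) to 15.8% on II (30 of 190).

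**Figure D3:**
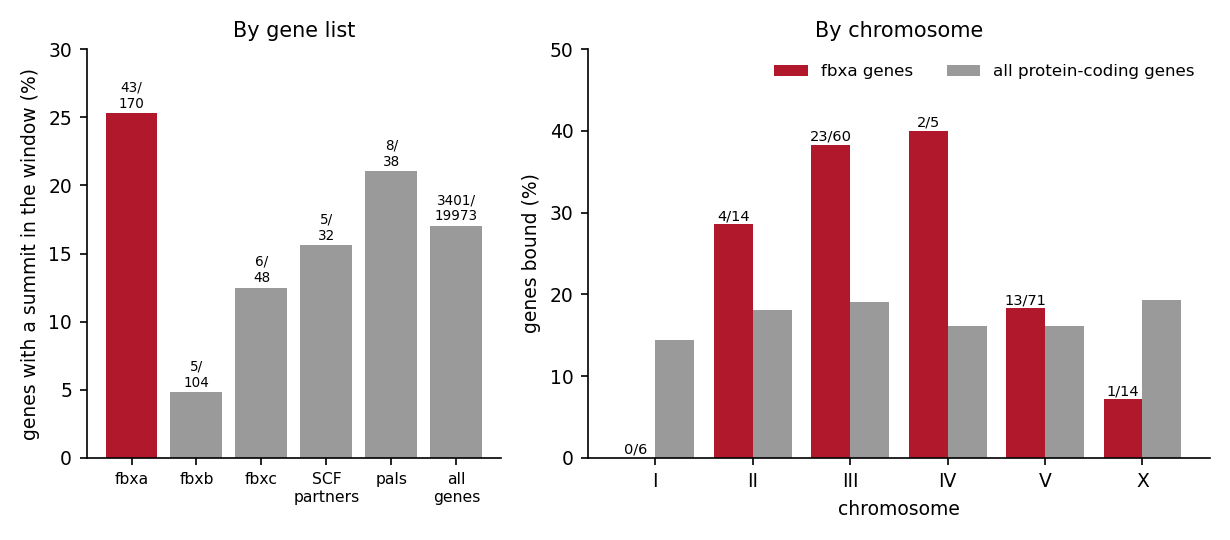
Percentage of genes with a thresholded summit in the promoter window, by gene list (left) and by chromosome for fbxa genes (red) and all protein-coding genes (grey, right), with bound and total counts printed at the bars. The fbxa bar stands at 25.3% and the fbxb bar at 4.81%, and the fbxa share on chromosome III is 38.3%.

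Much of the family sits in tandem arrays, here runs of 2 or more fbxa genes no more than 10000 bp apart. There were 29 such arrays with 114 genes, of which 32 were bound (28.1%), and 11 of the 56 genes outside arrays were bound (19.6%). Bound members were gathered in 13 arrays, and the other 16 arrays, with 43 genes, had none. Of 28 other protein-coding genes that lie within the arrays, 3 were bound (10.7%), against 17% of all protein-coding genes.

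The largest array ran over 85.6 kb of chromosome III (chrIII:1239048-1324613) and held 22 fbxa genes, of which 11 were bound through 9 promoter peaks. They were fbxa-76, fbxa-77, fbxa-32, fbxa-31, fbxa-29, fbxa-37, fbxa-50, fbxa-35, fbxa-79, fbxa-80 and fbxa-19. Their signals were mixed: fbxa-50 and fbxa-35 had 535 and 461, fbxa-79 had 269, and the others lay between 146 and 202. Bound and unbound genes came in short runs along the DNA. The neighbours fbxa-32, fbxa-31 and fbxa-29 were bound, and so were fbxa-79, fbxa-80 and fbxa-19, of which fbxa-80 and fbxa-19 share a peak. The neighbours fbxa-208, fbxa-78 and fbxa-151 were not bound. Of the 50-base words of their windows, 100%, 95.3% and 26.2% occur more than once in the genome. Reads from such words may not have been placed, and the part this played was not tested. The order of bound and unbound genes was not tested either.

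The strongest peak inside that array belonged to no promoter window. Its summit at position 1279350 had a signal of 1057 and rank 94 (rank 126 in replicate 1 and 72 in replicate 2). It lay between fbxa-30 and fbxa-37, 3737 bp upstream of fbxa-30 and its peak overlapped no annotated gene. Its sequence is printed because it outranks every fbxa promoter peak except that of fbxa-108.
array peak between fbxa-30 and fbxa-37, chrIII:1279300-1279400, plus strand: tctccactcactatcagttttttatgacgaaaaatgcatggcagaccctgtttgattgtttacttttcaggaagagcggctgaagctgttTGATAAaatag
It holds 1 hexamer close to its right edge. A second peak of the array, with a signal of 654 and rank 421, lay inside the annotated 5′ UTR of fbxa-14, 845 bp past its 5′ end and so outside the window.

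**Figure D4:**
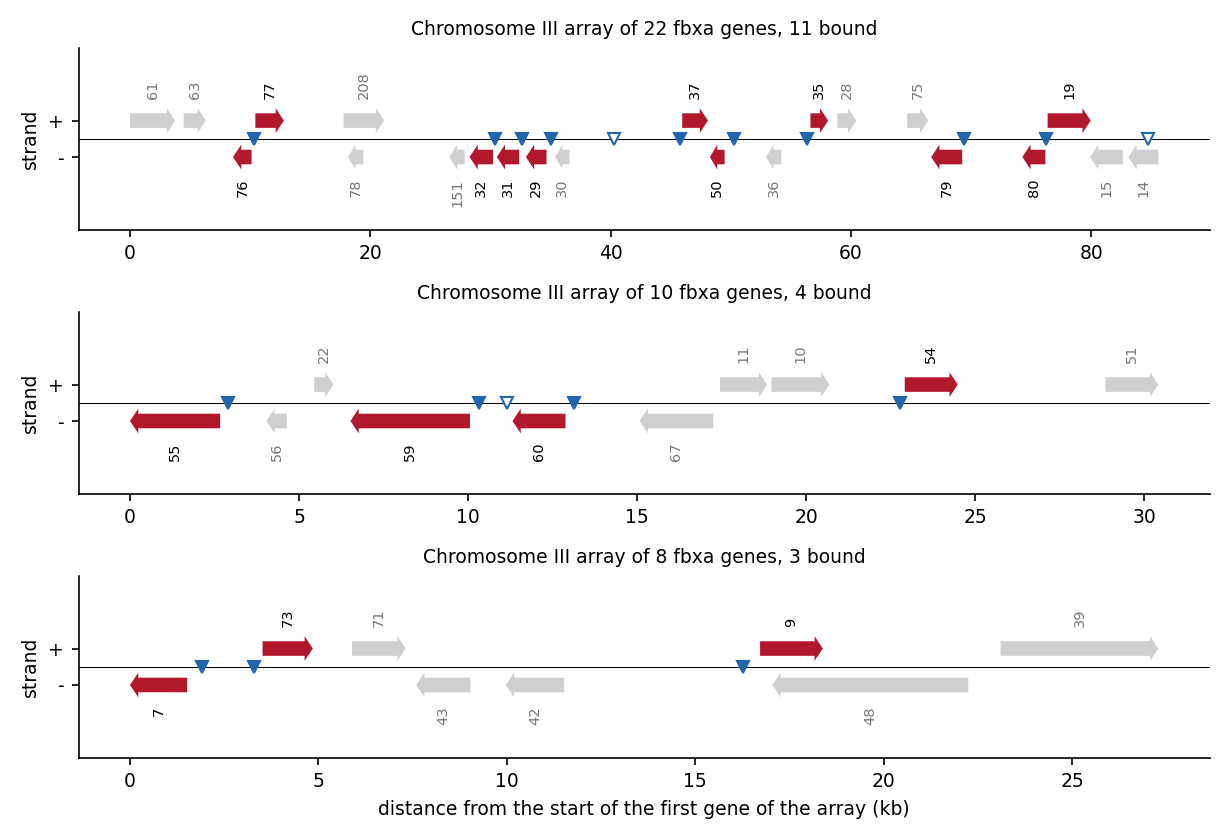
Maps of the 3 largest fbxa arrays, all on chromosome III, with genes as arrows by strand (red bound, grey unbound, numbered without fbxa-) and thresholded summits as triangles (filled where in the window of an fbxa gene, open where not), against distance in kb from the first gene. The arrays hold 22, 10 and 8 fbxa genes with 11, 4 and 3 bound, and the open triangle near 40 kb in the top map is the summit of rank 94.

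Over all arrays 33 thresholded summits lay inside, 24 of them in the window of an fbxa gene and 9 not, 7 of which were in no gene's window at all. Inside means from the start of the first fbxa gene body to the end of the last. Promoter peaks just beyond that span, such as those of fbxa-108 and fbxa-134, were thus left out of these counts. The second array (chrIII:933422-963833, 10 genes) had fbxa-55, fbxa-59, fbxa-60 and fbxa-54 bound, with signals of 271, 296, 332 and 209.9. The third (chrIII:2249932-2277219, 8 genes) had fbxa-7, fbxa-73 and fbxa-9 bound, with 179.6, 358 and 405. On chromosome II fbxa-158 was the only bound gene of its array of 6 genes, and fbxa-182 and fbxa-4 were a bound pair with 156 and 318. On chromosome V 3 of 4 genes were bound in the array of fbxa-185, fbxa-188, fbxa-189 and fbxa-134, while 3 other V arrays of 4 genes each had none.

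Some neighbours in an array had summits in near copies of the same DNA, shown here on the strand of each gene.
fbxa-60, chrIII:946515-946615, minus strand: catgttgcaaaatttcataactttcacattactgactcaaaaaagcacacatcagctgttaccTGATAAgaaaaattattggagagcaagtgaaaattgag
fbxa-59, chrIII:943693-943793, minus strand: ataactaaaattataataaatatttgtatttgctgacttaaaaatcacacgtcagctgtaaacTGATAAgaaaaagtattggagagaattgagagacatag
fbxa-156, chrV:17897119-17897219, minus strand: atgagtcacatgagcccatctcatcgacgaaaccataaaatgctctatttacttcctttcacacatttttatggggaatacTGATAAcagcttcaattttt
fbxa-157, chrV:17899310-17899410, plus strand: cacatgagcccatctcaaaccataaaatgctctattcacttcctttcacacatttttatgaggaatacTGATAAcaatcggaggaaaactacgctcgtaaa
Global alignment of these 101-bp runs gave 78 identical bases for fbxa-60 and fbxa-59 and 80 for fbxa-156 and fbxa-157. In each pair the hexamer stands in the same stretch of letters. The next pairs were fbxa-55 with fbxa-54 at 70 and fbxa-31 with fbxa-32 at 69. No pair from different places had more than 68. The median over 66 pairs of bound genes from the same array was 58 identical bases, and it was also 58 over 834 pairs not in the same array. Pairs of genes with the same summit were left out, and otherwise a shared peak entered once for each of its genes. The signals within a pair were close: 332 and 296 for fbxa-60 and fbxa-59, 186 and 149 for fbxa-156 and fbxa-157. With 50-base words counted over the genome on both strands, repeated words made up at most 11.6% of any of the 40 peaks, at fbxa-59, so the peaks mostly stood in sequence found once.

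The GATA hexamer was more frequent at fbxa summits than at other promoter summits. Of the 40 fbxa peaks, 26 (65%) had TGATAA on either strand no more than 50 bp from the summit, and 42.1% of the other 3036 promoter peaks did. Equally wide windows placed 500 bp to the right of the fbxa summits held it in 4 of 40 (10%), and to the left in 8 of 40 (20%), against 10.2% and 10.7% for the other peaks. Within 100 bp the hexamer was present at 33 fbxa peaks (82.5%) and at 56.2% of the others. The looser form WGATAR, in which W is A or T and R is A or G, was within 50 bp of 32 fbxa summits (80%) and of 54.2% of the others. In the flank windows it was also commoner at fbxa peaks, with 37.5% to the right and 27.5% to the left, against 20.2% and 21.2% for the others. Within 150 bp, 18 of the 40 had 2 or more copies of TGATAA (45%), beside 35.2% of the others.

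The hexamer was missing at some strong peaks and present at some weak ones. Of the 10 strongest fbxa peaks, those of fbxa-83, fbxa-35, fbxa-88 and fbxa-90 had no TGATAA within 50 bp. The fbxa-35 summit had 3 WGATAR matches within 50 bp and 2 copies of TGATAA within 150 bp. The fbxa-88 summit had 3 copies of TGATAA within 150 bp. Around the fbxa-83 and fbxa-90 summits there was neither TGATAA within 150 bp nor WGATAR within 50 bp. The fbxa-190 peak, with 3 copies of TGATAA within 50 bp, ranked only 3714. A hexamer in the promoter window at large was common in either state. It was found in 39 of 43 bound (90.7%) and in 97 of 127 unbound fbxa windows (76.4%), and in 72.0% of the windows of all genes. A match is a run of letters, and no statement on use of the site follows from it.

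**Figure D5:**
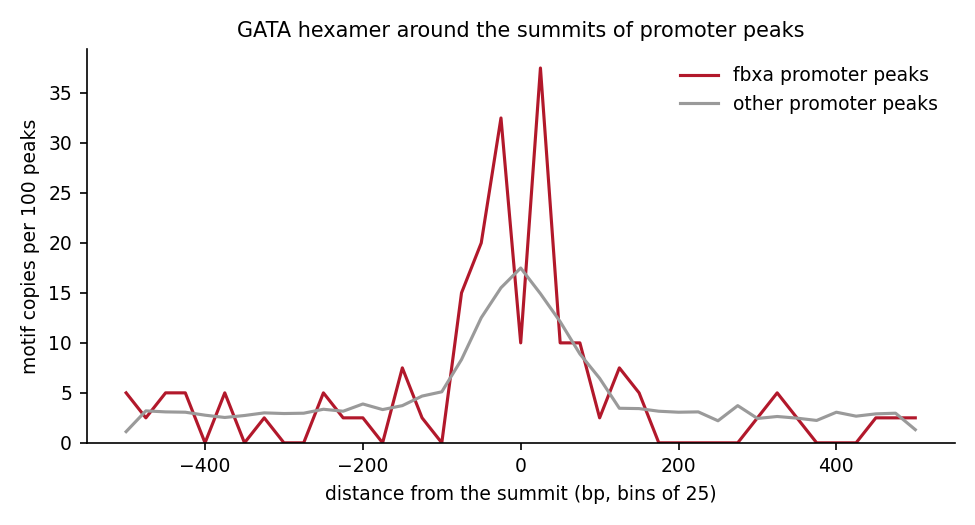
Copies of TGATAA on either strand per 100 peaks (vertical axis) in bins of 25 bp by distance from the summit (horizontal axis), for 40 fbxa promoter peaks in red and 3036 other promoter peaks in grey. The fbxa line reaches 37.5 copies per 100 peaks in the bin centred 25 bp to the right of the summit, and with 40 peaks each copy moves it by 2.5.

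There were 127 unbound fbxa genes, and for most of them no list held a summit in the window. In 82 none of the relaxed lists, which include weak peaks and background on purpose, had a summit there. In 35 (27.6%) the pooled relaxed list of both replicates had one, against 20.2% of all unbound genes. With all 16833 peaks of that relaxed list, 78 of the 170 fbxa genes had a summit in the window, or 45.9%, against a background of 33.8%. The strongest of these weak summits were at fbxa-176 (signal 134, rank 5829), fbxa-51 (123), fbxa-38 (121), fbxa-61 (121) and fbxa-53 (111). The lowest thresholded signal was 142, and the weakest bound member, fbxa-127, had 144.

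The pathogen response gene fbxa-75, in the middle of the largest array, was among the unbound. Its window held only a pooled relaxed summit 214 bp upstream, with a signal of 66.4 and rank 13639. Replicate 1 listed no peak there, and replicate 2 listed 1 at rank 15379. Of the 50-base words of its window, 33.8% occur more than once in the genome, so reads from them may not have been placed, and the part this played was not tested. Its partner in that response, fbxa-158, had no repeated word in its window.

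For a few unbound genes a thresholded summit lay not far outside the window. The nearest were fbxa-3, fbxa-18, fbxa-14 and fbxa-209, and at each of them the summit was inside the annotated 5′ UTR of the gene, 740, 747, 845 and 1453 bp past the 5′ end. The summit in fbxa-3 was among the strongest of the whole list, with a signal of 1604 and rank 26, and it lay in the window of fbxc-19, 345 bp upstream of that gene. The summit in fbxa-18 was that of fbxa-88, and the one in fbxa-209 lay 450 bp upstream of Y36E3A.2. For fbxa-95 the nearest summit lay 1506 bp upstream, in the window of lsm-5, a gene for an Sm-like splicing protein, and was weak, with a signal of 144 and rank 5342. Over all unbound fbxa genes the median distance to a thresholded summit was 8276 bp.

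Copied sequence was commoner in fbxa windows than elsewhere. At least 1 repeated 50-base word was found in 70 of the 170 windows (41.2%) and in 23.8% of all promoter windows. Bound and unbound members differed little in this, with 17 of 43 (39.5%) and 53 of 127 (41.7%). In 10 windows more than 50% of the words were repeated, and none of these genes, named here after their values were seen, was bound: fbxa-208, fbxa-78, fbxa-36, fbxa-14, fbxa-148, fbxa-112, fbxa-133, fbxa-221 and both genes named fbxa-41. Leaving these out, 43 of 160 members were bound, or 26.9%. Read length and the treatment of reads that fit several places were not stated.

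The other F-box families had lower shares. Of 104 fbxb genes 5 were bound (4.81%), and of 48 fbxc genes 6 were (12.5%). The peak of fbxc-29, with a signal of 3469 and rank 5, was far above that of fbxa-108. That of fbxc-19, with 1604 and rank 26, was close to it, and the other bound fbxc genes had signals from 166 to 749. All 6 bound fbxc genes lay on chromosome II, but how many of the 48 lie on that chromosome was not counted. The difference between families was not tested. No fbxb window had more than 50% repeated words and 12 of the fbxc windows did, so 6 of 36 fbxc genes (16.7%) were bound without them.

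A list of cullins, Skp1-related genes, RING and neddylation factors had 5 of 32 genes bound (15.6%), near the 17% of all genes. It takes in cullins of other ubiquitin ligases, since F-box proteins join a cullin through a Skp1-related protein and CUL-3, CUL-4 and CUL-5 use other adaptors. These were skr-19 (signal 269, summit 602 bp upstream), skr-3 (251, 18 bp past the 5′ end), cul-5 (223, 169 bp upstream), cul-3 (169, 274 bp upstream) and cul-4 (147, 213 bp upstream). Of the F-box, Skp1-related and cullin genes named above for the pathogen response, skr-3 and fbxa-158 were thus bound, and cul-6 and fbxa-75 were not. The pals genes, which are regulators and markers of the same response, were bound at 8 of 38 (21.1%), and at 6 of 38 (15.8%) without replicate 1, when 16.5% of all genes were. Their strongest peak, with a signal of 616 and rank 493, was shared by pals-6 and pals-14, and pals-2 followed with 432.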

How the data were processed

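ChIP-seq of tagged ELT-2 in 2 biological replicates was supplied by the authors as peak lists on the build ce11, and copies on ce10 were not used. Per the labels and the notes deposited with the files, a replicate's relaxed list comes from 1 alignment with 1 control, the pooled list combines the replicates, and IDR on all of these gave the thresholded list. Peak signal is the enrichment value as deposited, comparable only within a list. Aligner, peak caller, read length and IDR threshold were not given in the sources used here. The files hold no read counts, so depth and the precision it gives are unknown.

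Coordinates are 1-based. Summits were set against transcript 5′ ends of 19973 protein-coding genes. Repeated sequence was the share of 50-base words that occur more than once in the nuclear genome on either strand. Runs of 101 bp were aligned globally (match 1, mismatch -1, gap opening -2, extension -0.5). Of 33 listed SCF partner symbols 32 matched. Named genes were all bound members, genes sharing their summits, the 5 nearest and 5 strongest unbound members, fbxa-75, fbxa-158, bound partners, the strongest pals genes and genes of arrays with a bound member. Other named genes (fbxb and fbxc genes, cul-6, members with mostly repeated windows) and array peaks were chosen after their values were seen. Members and lists were chosen with earlier results of these data known, and no test was run. The programs were tested on simulated data. Tools were Biopython 1.88, pandas 2.3.3, NumPy 2.4.6, SciPy 1.17.1 and matplotlib 3.10.9 under Python 3.11.15.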

Additional observations from a re-analysis of the deposited data

How the results depend on the processing

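The count of bound fbxa genes was 43 and stayed within 1.5 times of that with windows of 500 bp upstream to 100 bp downstream (36) or 3000 to 500 bp (59), with the nearest gene alone (40) and with the most upstream 5′ end of each gene (43). It fell to 20 with the 2721 strongest peaks and was 78 with all pooled relaxed peaks, where the distinct fbxa peaks numbered 20 and 86 in place of 40. In each of these settings the fbxa share was above that of all genes. Leaving out a replicate was done by using the 5443 strongest peaks of the other. Without replicate 1, 36 fbxa genes were bound, or 21.2%, against 16.5% of all genes. The ratio of these shares, 1.29, was the lowest of all settings, beside 1.49 in the main one. Of the 33 peaks 22 had TGATAA, and 32 of the 36 genes had the nearest 5′ end. Without replicate 2, 41 fbxa genes were bound, or 24.1%, against 17.01% of all genes. Of the 39 peaks 24 had TGATAA, and 37 of the 41 genes had the nearest 5′ end. Without replicate 1 the genes lost were fbxa-127, fbxa-157, fbxa-182, fbxa-25, fbxa-29, fbxa-37, fbxa-6 and fbxa-7, with fbxa-38 gained. Without replicate 2 they were fbxa-105 and fbxa-135. With the 2721 strongest peaks, 19 of 20 bound fbxa genes had the nearest 5′ end. With the window of 3000 to 500 bp only 36 of 59 did (61.0%), against 39 of 43 (90.7%) with the main window. A motif window of 25 bp found TGATAA at 17 fbxa peaks (42.5%, against 25.4% of the other promoter peaks) in place of 26, and words of 100 bases marked 39 windows as repeated in place of 70. Bound fbxb genes numbered 3 with the short window, 12 with the long one, 2 by the nearest gene and 12 with the relaxed peaks (2.88%, 11.5%, 1.92% and 11.5%), where all genes had 13.2%, 25.2%, 15.1% and 33.8%. SCF partners numbered 9 with the long window, 2 with the strongest peaks and 14 with the relaxed peaks, and pals genes 14, 5 and 14. As shares these are 28.1%, 6.25% and 43.8% of the partners and 36.8%, 13.2% and 36.8% of the pals genes, beside 25.2%, 8.86% and 33.8% of all genes, so the partners were above all genes in the first and last setting and below them in the other. The share of repeated words stands in for how well reads can be placed, which the peak lists do not show. With peaks alone, an unbound gene had no listed peak, which does not show that ELT-2 was absent there.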

Other observations

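The base before the hexamer differed between the fbxa peaks and the rest, a feature looked at after the sequences had been seen. Of the 40 copies of TGATAA within 50 bp of an fbxa summit, 25 were preceded by C (62.5%), against 38.4% of the 1803 copies at other promoter summits. The 7 letters CTGATAA, on either strand, were present at 21 of the 40 fbxa peaks (52.5%) and at 20.2% of the other promoter peaks, and 2.54% of the windows 500 bp to the right of those other peaks held them. The base after the hexamer was G in 50% of the fbxa copies and in 46.0% of the others. The 4 peaks at the near-copy pairs fbxa-60 with fbxa-59 and fbxa-156 with fbxa-157 all carry CTGATAA, so these copies are not independent. The fbxa-55 peak carries it in nearly the same stretch of letters as fbxa-59, a gene of the same array. It is also carried by fbxa-54 of that array, whose run had 70 bases identical to that of fbxa-55. The 7 letters were not counted in the flanks of the fbxa peaks, where TGATAA to the left was commoner than at other peaks.

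The fbxa-83 gene has 3 annotated 5′ ends and had a second thresholded summit, in an intron, with a signal of 153 and rank 5020. This summit lay 799 bp past the nearest of these ends, which is not the most upstream end used for the first summit. Its peak overlapped the annotated piRNA genes 21ur-3239 and 21ur-4505, and 2 copies of TGATAA lay within 50 bp of the summit. In the array with fbxa-59, another summit with a signal of 217 lay 1086 bp upstream of fbxa-59, also with 2 copies of TGATAA, and was in no gene's window. Ranks of the 40 fbxa peaks in the replicates had a Spearman rho of 0.88, beside 0.84 over 3033 other promoter peaks. This is a description of peaks that share their libraries and were listed by their pooled strength.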
